A study of Mus musculus with 20 samples.

Results

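Glutamate and GABA receptor subunits were followed as 32 genes, picked by symbol from the 43346 genes of the deposited count table. No cut on measured values was used, but the list was chosen with earlier results of these data known. Glutamate carries most fast excitation in cortex and GABA most fast inhibition. AMPA, kainate and NMDA receptors are glutamate-gated cation channels and GABA-A receptors are GABA-gated chloride channels, each assembled from several subunits. Metabotropic glutamate receptors and GABA-B receptors instead signal through G proteins. The 32 genes were 4 AMPA subunits (Gria1 to Gria4), 5 kainate subunits (Grik1 to Grik5), 6 NMDA subunits (Grin1, Grin2a to Grin2d and Grin3a), 6 metabotropic receptors (Grm2, Grm3, Grm4, Grm5, Grm7 and Grm8), 9 GABA-A subunits (Gabra2 to Gabra5, Gabrb1, Gabrb2, Gabrg1, Gabrg3 and Gabrd) and both GABA-B subunits (Gabbr1 and Gabbr2). Other genes of these families were not analysed here.

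RNA was sequenced from mouse cortex, with 5 libraries in each of 4 groups: control and knockin (KI) at 3 months of age, and control and KI at 10 months. All 4 groups carried 5xFAD+/-, human amyloid precursor protein and presenilin transgenes with familial Alzheimer's disease mutations that the neuronal Thy1 promoter drives, so no group is free of the amyloid model. Controls were Abca7WT/WT. KI animals carried a knocked-in Abca7 substitution, named A693S in the labels and A696S in the series' design text; the protocol lists both Abca7WT/KI and Abca7KI/KI animals, and a library labelled KI could be either. Animals were male littermates per the protocol. Nothing says outright that libraries come from separate animals, so the tests below weigh differences against library-to-library spread, which may be technical.

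Library totals ran from 42896149 to 57447015 counts, and 19623 genes passed the filter on low counts, all 32 subunit genes among them. The smallest count of any of the 32 in 1 library was 330, for Grm4. Abca7 differed between genotypes by less than the spread between libraries, with a log2 fold change of -0.15 ± 0.13 (SE, edgeR adjusted p = 1) at 3 months, -0.16 ± 0.13 (edgeR adjusted p = 0.812) at 10 months and -0.16 ± 0.09 (edgeR adjusted p = 0.831) over both ages, and its level does not check the substitution. Excitatory neuron markers summed to between 3820 and 5260 CPM and none was at 0 in every library of a group, while choroid plexus markers ran from 30 to 2290 CPM between libraries. KI replicate 3 at 3 months and KI replicate 5 at 10 months lay highest on the second principal component (55.2 and 31.9). The library labelled KI replicate 5 at 10 months had 54206 Xist counts against at most 218 in any other library, and 1 Ddx3y count against at least 2382, against the protocol's male animals. Values that these libraries move most are also given without them.

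Levels were compared between genes as counts scaled to a fixed library total (CPM) per kilobase of the gene length in the deposited table. In control cortex at 3 months Gabbr1, the GABA-B subunit that binds GABA, was highest at 114 ± 3.06 CPM per kilobase (SD, n = 5). Gria1, a pore-forming AMPA subunit tied to synaptic plasticity, followed at 84.9 ± 5.80 CPM per kilobase. Gabbr2, the GABA-B subunit that couples to the G protein, came next at 64.2 ± 2.45 CPM per kilobase. These leading genes did not overlap each other or the gene below them in any library. From Gabra3 (55.6 ± 3.47 CPM per kilobase), an X-linked GABA-A alpha subunit, down to Grik5 (37.3 ± 6.73 CPM per kilobase), a high-affinity kainate subunit that works with other kainate subunits, each gene's range overlapped that of the next. The lowest level was that of Grin2d, an NMDA subunit, at 2.25 ± 0.381 CPM per kilobase.

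Within classes the order was the same in nearly every group. Among AMPA subunits Gria1 was highest and Gria4 lowest in all 4 groups. Grik5 led the kainate class, Grin1 (the subunit that every NMDA receptor contains) led the NMDA class, and Gabra3 led the GABA-A class, again in all 4 groups. Grm5, a Gq-coupled receptor concentrated around the postsynaptic density, led the metabotropic class throughout, while the lowest metabotropic gene was Grm8 in 3 groups and Grm4 in KI at 10 months. Summed over a class in control cortex at 3 months, the 9 GABA-A genes reached 226 ± 10.3 CPM per kilobase, the 4 AMPA genes 205 ± 10.3, the 2 GABA-B genes 178 ± 4.10, the 6 NMDA genes 93.8 ± 6.81, the 6 metabotropic genes 76.2 ± 3.80 and the 5 kainate genes 74.2 ± 7.74. The NMDA class stood at 93.0 ± 4.83 CPM per kilobase in KI at 3 months, 83.2 ± 3.70 in control at 10 months and 79.2 ± 6.95 in KI at 10 months.

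Length bears on this order. The deposited length equalled the union of exons in GENCODE M21 for 14 of the 32 genes and was far shorter for Grin2a (5296 against 17933 bases), Gabra2 (2392 against 7640) and Gabrb1 (3089 against 13838). Per kilobase of the longest M21 transcript, Gabbr1 stayed in place 1 at 169 CPM per kilobase, Grin1 moved from place 6 to 2 at 104, Gabra2 from place 7 to 18, and Gabrb1 from place 20 to 31. The lowest gene was then Grin2a at 1.48 CPM per kilobase, with Grin2d in place 30 at 2.43. The order of the classes also changed, to 279 ± 14.9 CPM per kilobase for AMPA, 234 ± 5.38 for GABA-B, 214 ± 8.64 for GABA-A, 155 ± 11.4 for NMDA, 83.8 ± 4.42 for metabotropic and 70.2 ± 7.36 for kainate genes. The counts came with the deposited lengths, so reads in M21 exons outside those gene models may not have been counted. Division by a longer M21 transcript can then place a gene too low, and by a shorter one too high. The changes of place and of class order carry this mismatch.

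**Figure D1:**
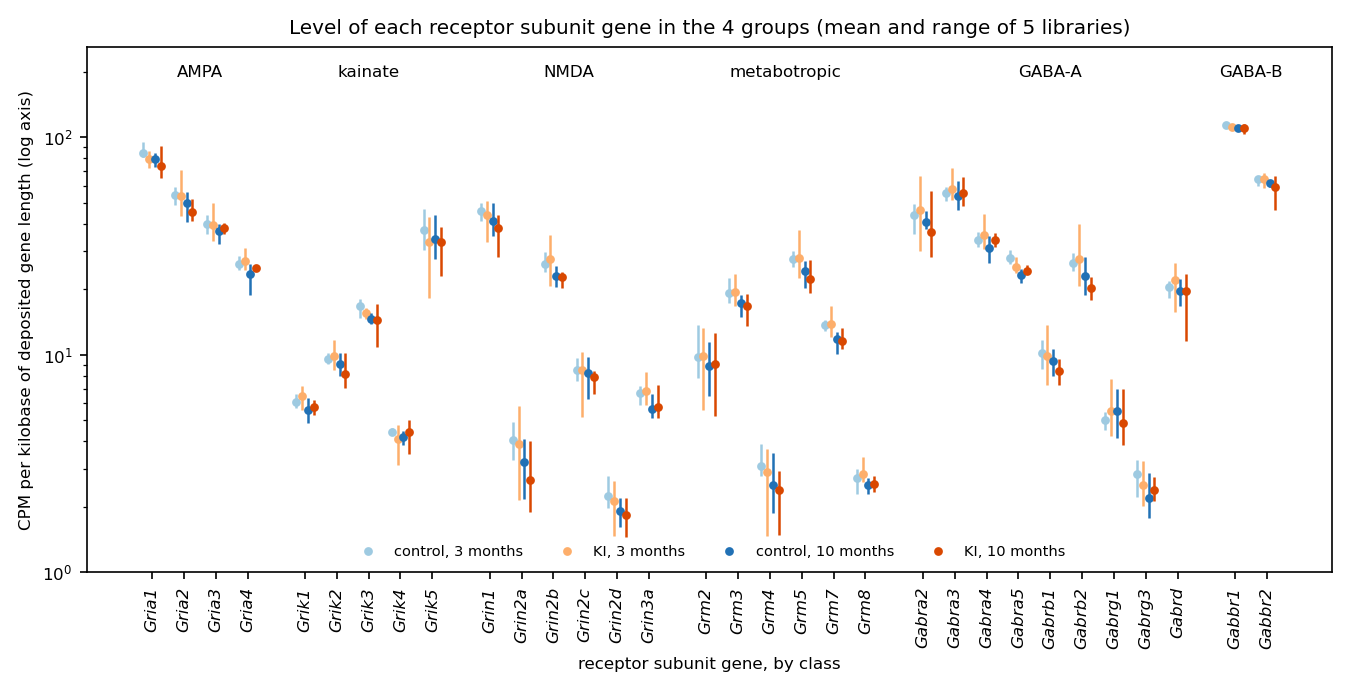
Level of each of the 32 subunit genes in CPM per kilobase of deposited gene length (log axis), grouped by receptor class; points are group means and vertical lines the lowest and highest of 5 libraries. Gabbr1 is highest in all 4 groups, and the ranges of the groups overlap for most genes.

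No subunit gene passed the test between Abca7 genotypes. At 3 months 0 of 32 passed the test (edgeR, adjusted p under 0.05), beside 0.0255% of all genes tested, and 1 had an unadjusted p under 0.05, beside 3.8% of all genes. At 10 months 0 of 32 passed, beside 0.0612% of all genes, and 0 had an unadjusted p under 0.05, beside 7.86%. With the ages averaged 0 of 32 passed, beside 0.0764% of all genes, 0 had an unadjusted p under 0.05, beside 6.52%, and 22 were below 0, beside 48.6%. DESeq2 and limma-voom also called 0 of 32 in each of these comparisons, beside 0.0588% and 0.0612% of all genes at 3 months, 0.307% and 0.382% at 10 months and 0.206% and 0.296% with the ages averaged.

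The intervals limit how large a genotype difference could be. At 3 months the 95% intervals of all 32 genes lay within 1.5-fold in either direction. At 10 months those of 31 did, the exception being Grin2a, the NMDA subunit that gains weight over Grin2b as cortex matures, whose log2 fold change was -0.28 (interval -0.79 to 0.23). The log2 fold changes had a median of 0.00090 at 3 months, with 16 of 32 below 0, beside 47.6% of all genes. At 10 months the median was -0.04, with 20 of 32 below 0, beside 50% of all genes and a median of 0.00018 over them. Class medians at 3 months ran from -0.10 in the kainate class to 0.07 in the GABA-A class, and at 10 months from -0.06 in the NMDA class to 0.000017 in the GABA-A class.

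Gabra5 had the smallest unadjusted p in the genotype comparison at 3 months. It encodes a GABA-A alpha subunit found mostly outside synapses and known for tonic inhibition, and it lies at chr7:57407690-57510009 (mm10), next to Gabrg3 (chr7:56716465-57387188). Its log2 fold change in KI was -0.15 ± 0.06 (SE; unadjusted p = 0.0229, edgeR adjusted p = 1). The other genes of smallest p at 3 months were Gabrg3, a GABA-A gamma subunit (-0.17 ± 0.14), Gria1 (-0.09 ± 0.08) and Grik3, a kainate subunit (-0.10 ± 0.09), each with an edgeR adjusted p of 1. At 10 months they were Grik2 (-0.16 ± 0.10, edgeR adjusted p = 0.73), Gria1 (-0.11 ± 0.08, edgeR adjusted p = 0.795), Gabra4 (0.12 ± 0.09, edgeR adjusted p = 0.801) and Gabrb2 (-0.18 ± 0.14, edgeR adjusted p = 0.823). Grik2, a pore-forming kainate subunit at chr10:49099460-49788766, is the only one of the 32 on the chromosome that carries Abca7.

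Gria1 was the gene of smallest p with the ages averaged. Its level in the control libraries at 3 months was 489, 499, 502.8, 498 and 575 CPM, and in the KI libraries 505, 522, 456, 439 and 483 CPM. At 10 months the control libraries stood at 489, 492, 509, 458 and 440 CPM and the KI libraries at 417, 417, 553, 393 and 439 CPM. The genotypes overlapped at both ages, and the averaged log2 fold change was -0.10 ± 0.06 (unadjusted p = 0.0915, edgeR adjusted p = 0.825). The next were Gabra4 (0.10 ± 0.06, edgeR adjusted p = 0.856), an alpha subunit found in extrasynaptic receptors, Grik1 (0.07 ± 0.06, edgeR adjusted p = 0.924) and Gria4 (0.07 ± 0.06, edgeR adjusted p = 0.924). With the replicate number as a block these last 3, Grik3 at 3 months and Gabra4 at 10 months turned direction, to -0.029, -0.093, -0.092, 0.0032 and -0.0030. Only replicate numbers 6 and 7 occur in both genotypes, so that fit compares genotypes largely within those libraries. With single libraries left out the averaged values kept their direction (Gabra4 0.053 to 0.125, Grik1 0.040 to 0.092, Gria4 0.030 to 0.082). So did Grik3 at 3 months (-0.145 to -0.074) and Gabra4 at 10 months (0.068 to 0.1675). At 3 months the genotypes overlapped for all 32 genes, while KI lay wholly below control for 0.352% of all genes and wholly above for 0.306%. At 10 months they again overlapped for all 32, beside 0.586% and 0.907% of all genes. Without KI replicate 3 at 3 months and, separately, without KI replicate 5 at 10 months, 0 of 32 passed in the genotype comparisons they enter.

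**Figure D2:**
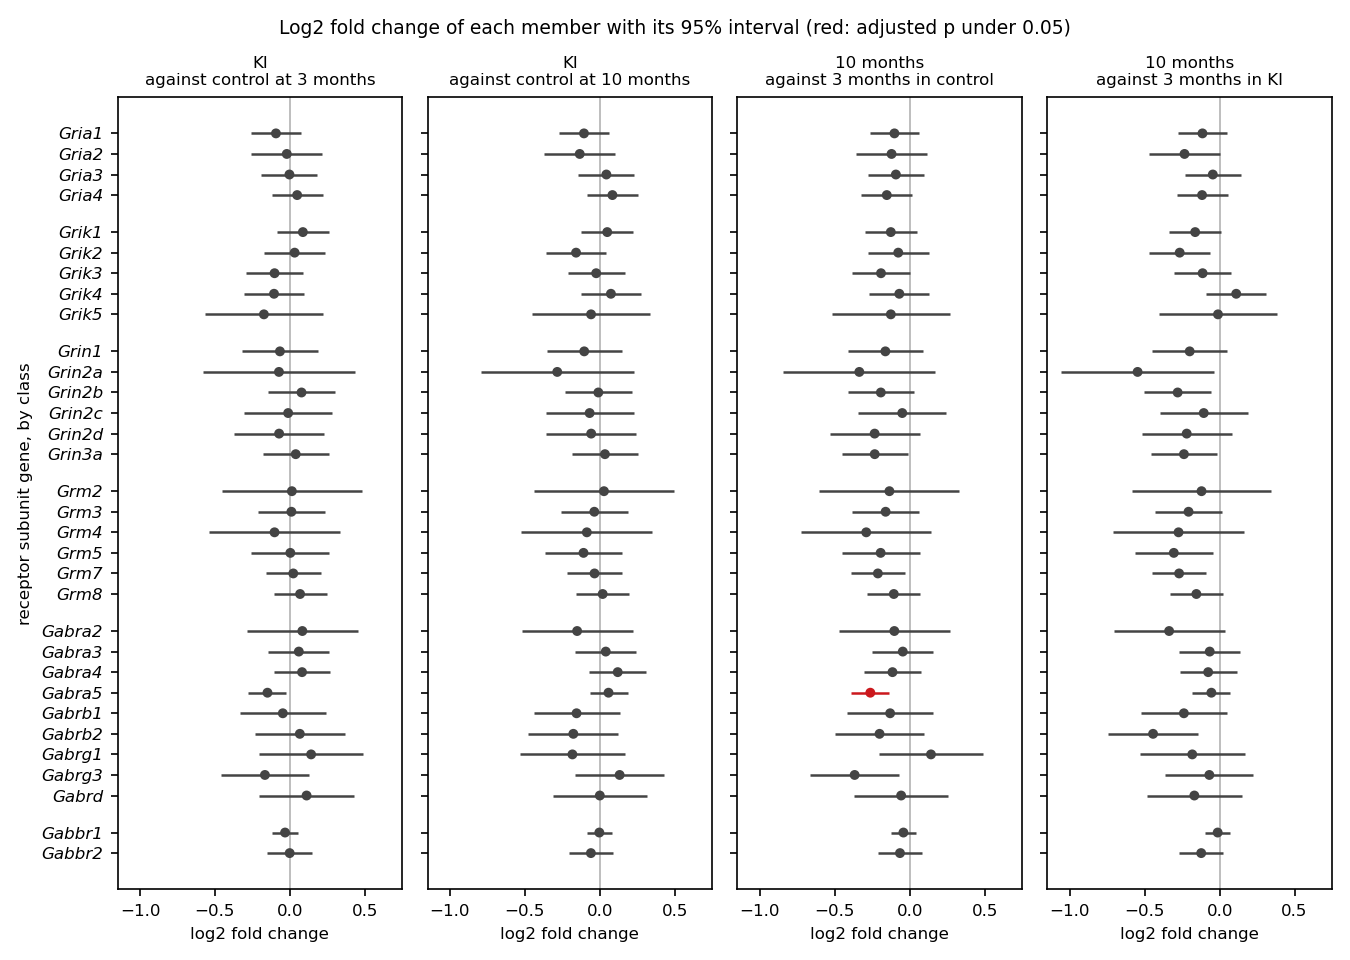
Log2 fold change of each of the 32 subunit genes (rows, by class) with its 95% interval in 4 comparisons; the vertical line marks 0 and red marks an edgeR adjusted p under 0.05. Points scatter on both sides of 0 in the genotype comparisons and lie below 0 for 31 of 32 genes in each age comparison, where Gabra5 in control is the only red point.

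With age the subunit genes lay lower as a group, by small amounts. In control cortex 31 of 32 had a log2 fold change below 0 at 10 against 3 months, beside 51% of all genes, with a median of -0.13 against -0.0034 over all genes. In KI cortex 31 of 32 were below 0, beside 50.7% of all genes, with a median of -0.17 against -0.0031. The exceptions were Gabrg1 in control (0.14 ± 0.17) and Grik4 in KI (0.11 ± 0.10). These 2 comparisons share no library. Few genes passed the test singly. In control 1 of 32 fell (Gabra5), beside 0.357% of all genes called lower and 4.07% called in either direction, and 5 had an unadjusted p under 0.05, beside 13.6%. In KI 0 of 32 passed, beside 8.06% of all genes called in either direction and 2.41% called lower, and 7 had an unadjusted p under 0.05, beside 21.2%. The genes share libraries, so the count below 0 is not 32 separate observations. In whole cortex, fewer neurons and less receptor RNA per neuron cannot be told apart. All libraries carry the amyloid transgenes, so age and the course of the amyloid model cannot be told apart either. The library numbers also divide by age, so an effect of that order cannot be separated from age.

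By class, and as medians without a test, the log2 fold changes with age lay furthest below 0 for NMDA and metabotropic genes and closest to 0 for GABA-B genes. Median log2 fold changes in control and KI were -0.21 and -0.23 for NMDA subunits, -0.18 and -0.24 for metabotropic receptors, -0.13 and -0.11 for kainate subunits, -0.12 and -0.17 for GABA-A subunits, -0.11 and -0.12 for AMPA subunits and -0.05 and -0.07 for GABA-B subunits. The mean over the 32 genes of log2 CPM, centred per gene, ran from 0.02 to 0.16 in control at 3 months and from -0.03 to 0.16 in KI at 3 months. It ran from -0.12 to -0.0021 in control and from -0.14 to -0.02 in KI at 10 months. It was above 0 in 5 and 3 of the 5 libraries at 3 months and in none at 10 months, so the control groups did not overlap and the KI groups did.

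Gabra5 fell with age in control cortex. Control libraries at 3 months gave 71.9, 69.3, 70.7, 78.9 and 80.4 CPM, and those at 10 months 56.8, 65.9, 62.5, 59.5 and 64.7 CPM. Every library at 10 months lay below every library at 3 months, and the log2 fold change was -0.26 ± 0.06 (95% interval -0.39 to -0.14; edgeR adjusted p = 0.012). With a score of thalamic markers as a covariate it was -0.24 and no longer passed (edgeR adjusted p = 0.0933). In KI the libraries gave 74.8, 67.8, 65.8, 63.0 and 63.2 CPM at 3 months and 68.6, 63.9, 64.8, 62.4 and 62.4 CPM at 10 months. These KI groups overlapped (-0.06 ± 0.06, edgeR adjusted p = 0.66). The difference between the age effects was 0.21 ± 0.09 (unadjusted p = 0.0252, edgeR adjusted p = 0.999) and did not pass. The lower value in KI at 3 months, the fall in control and this difference all draw on the same control libraries at 3 months. An antisense gene, Gm9962, overlaps 2252 bases of the span of Gabra5, introns included, and its overlap with Gabra5 exons was not computed. Gm9962 had a mean of 107.5 counts against 3357.8 for Gabra5. With the strand handling not given in the sources used here, reads in any shared exon cannot be told apart.

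Groups without overlap were uncommon with age. In control the libraries at 10 months lay wholly below those at 3 months for 2 of 32 genes (Gabra5 and Grm7), beside 1.13% of all genes. In KI they did so for 0 of 32, beside 1.83%. Grm7 (chr6:110645581-111567230) encodes a presynaptic metabotropic receptor that damps transmitter release. Its level was 84.9, 76.0, 76.4, 82.6 and 82.6 CPM in control at 3 months and 74.9, 75.1, 59.4, 65.4 and 72.6 CPM at 10 months, with a log2 fold change of -0.21 ± 0.09 (edgeR adjusted p = 0.256). In KI it was 98.7, 88.4, 76.1, 74.8 and 71.1 CPM at 3 months and 62.5, 68.0, 78.3, 64.5 and 65.6 CPM at 10 months. All but 1 KI library at 10 months lay below the lowest at 3 months, and the log2 fold change was -0.27 ± 0.09 (edgeR adjusted p = 0.063).

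The promoters of the 3 genes with the lowest p in an age comparison are shown to look for elements they share; Gabra5 passed in control, and Grm7 and Gabrb2 passed only under alternatives given below. They come from RefSeq (GRCm38.p6, the build also called mm10), span 250 bases before to 50 after the start, and are written 5′ to 3′ on the gene's strand. Of the 32 genes 23 matched the table; where a gene had several starts the first listed was taken. Capitals mark a TATA box (TATAAA), a GC box (GGGCGG) or an E-box (CANNTG) on either strand.
Gabra5, chr7:57510010-57510309, minus strand: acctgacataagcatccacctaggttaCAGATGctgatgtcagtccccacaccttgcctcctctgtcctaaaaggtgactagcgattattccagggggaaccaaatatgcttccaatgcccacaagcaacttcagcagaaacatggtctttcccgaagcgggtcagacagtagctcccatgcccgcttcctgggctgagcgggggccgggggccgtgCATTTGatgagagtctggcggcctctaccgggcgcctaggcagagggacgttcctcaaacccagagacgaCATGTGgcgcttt
Grm7, chr6:110645262-110645561, plus strand: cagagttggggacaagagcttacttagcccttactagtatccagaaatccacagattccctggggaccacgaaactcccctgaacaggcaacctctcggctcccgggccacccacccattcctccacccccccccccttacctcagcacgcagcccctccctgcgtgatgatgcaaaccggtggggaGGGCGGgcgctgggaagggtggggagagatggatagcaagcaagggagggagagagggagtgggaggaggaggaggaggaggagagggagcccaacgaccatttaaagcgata
Gabrb2, chr11:42420190-42420489, plus strand: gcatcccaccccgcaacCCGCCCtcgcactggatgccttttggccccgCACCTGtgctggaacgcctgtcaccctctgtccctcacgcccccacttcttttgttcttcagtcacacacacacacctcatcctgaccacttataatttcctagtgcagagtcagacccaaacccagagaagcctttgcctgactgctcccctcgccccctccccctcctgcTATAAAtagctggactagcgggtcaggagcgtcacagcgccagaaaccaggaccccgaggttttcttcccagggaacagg
No marked motif is common to the 3 windows. Gabra5 holds 3 E-boxes, Grm7 1 GC box, and Gabrb2 1 GC box, 1 E-box and 1 TATA box just before the start. A GC box was in 15 of the 23 subunit promoters and in 35.7% of all 32851 promoters in the table, an E-box in 11 of 23 and 72.3%, and a TATA box in 2 of 23 and 13.6%. The cyclic AMP response element (TGACGTCA) was in 0 of 23 and 1.8%. A match is a run of letters and was not tested as a binding site.

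Gabrb2, a GABA-A beta subunit at chr11:42419757-42629028, lay furthest below 0 of the 4 KI genes of smallest p, and its KI libraries spread widely at 3 months. KI libraries gave 253, 195, 149, 151 and 132 CPM at 3 months and 114, 114, 140, 133 and 146 CPM at 10 months. Control libraries gave 186, 162, 170, 167 and 155 CPM at 3 months and 178, 145, 123, 119 and 165 CPM at 10 months. The highest value was that of KI replicate 3 at 3 months, and the ages overlapped in both genotypes. The log2 fold change was -0.44 ± 0.14 in KI (edgeR adjusted p = 0.0632) and -0.20 ± 0.14 in control (edgeR adjusted p = 0.647). Without KI replicate 3 at 3 months the KI value was -0.28 (edgeR adjusted p = 0.161).

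Grik2 and Grin2b completed the 4 genes of smallest p in KI. Grik2 stood at 96.9, 86.7, 78.9, 73.9 and 70.2 CPM in KI at 3 months and at 60.6, 65.4, 84.1, 58.1 and 69.6 CPM at 10 months, a log2 fold change of -0.27 ± 0.10 (edgeR adjusted p = 0.104). The 1 high library at 10 months was KI replicate 5. Grin2b, the NMDA subunit that is prominent early in life, stood at 883, 763, 610, 660.4 and 516 CPM in KI at 3 months and at 503, 569, 593, 578 and 584 CPM at 10 months. Its log2 fold change was -0.28 ± 0.11 (edgeR adjusted p = 0.122), with the highest libraries at 3 months well above all those at 10 months and the lowest within their range. Without KI replicate 3 at 3 months it was -0.17 (edgeR adjusted p = 0.27). In control the values were -0.08 ± 0.10 for Grik2 (edgeR adjusted p = 0.855) and -0.19 ± 0.11 for Grin2b (edgeR adjusted p = 0.481).

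Whether these KI genes pass depends on the method and the libraries. DESeq2 called 2 of 32 lower with age in KI (Grm7 and Gabrb2), beside 3.94% of all genes called lower, and limma-voom 4 (Grik2, Grm5, Grm7 and Gabrb2), beside 6.05%. Without KI replicate 5 at 10 months edgeR called 4 lower (Grik2, Grin3a, Grm7 and Gabra2), beside 2.65% of all genes, with Grik2 at -0.36 (edgeR adjusted p = 0.0153) and Grm7 at -0.33 (edgeR adjusted p = 0.0239). Without KI replicate 3 at 3 months it called 0, beside 2.75% of all genes called lower, with Grm7 at -0.19 (edgeR adjusted p = 0.146) and Grik2 at -0.20 (edgeR adjusted p = 0.214). Without KI replicate 7 at 3 months it called 4 lower (Grik2, Grin2b, Grm7 and Gabrb2), beside 2.77% of all genes, and without KI replicate 5 at 3 months 1 (Gabrb2), beside 2.16%. In control Gabra5 was called, alone, whichever control library was left out. The number of genes below 0 stayed between 28 and 31 of 32 in KI and between 30 and 31 in control over the alternatives tried.

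The remaining genes did not pass, and their intervals were mostly narrow. In control the 95% interval of 28 of 32 lay within 1.5-fold in either direction, the exceptions being Grin2a, Grm2, Grm4 and Gabrg3. In KI 27 of 32 did, the exceptions being Grin2a, Grm2, Grm4, Gabra2 and Gabrb2. Grin2a reached furthest, with a log2 fold change of -0.55 in KI (interval -1.06 to -0.04; edgeR adjusted p = 0.198) and -0.34 ± 0.24 in control (edgeR adjusted p = 0.654). Without KI replicate 3 at 3 months the KI value of Grin2a was -0.36 (edgeR adjusted p = 0.4) and without KI replicate 5 at 10 months -0.46 (edgeR adjusted p = 0.329). Gabrg3 was at -0.37 ± 0.14 in control (edgeR adjusted p = 0.209) and -0.07 ± 0.14 in KI (edgeR adjusted p = 0.838). Grin3a, an NMDA subunit that lowers calcium entry, was at -0.23 ± 0.11 in control (edgeR adjusted p = 0.321) and -0.24 ± 0.11 in KI (edgeR adjusted p = 0.193). Grm5 was at -0.19 ± 0.13 in control (edgeR adjusted p = 0.585) and -0.31 ± 0.13 in KI (edgeR adjusted p = 0.151). At the other end Gabbr1 was at -0.04 ± 0.04 in control and -0.01 ± 0.04 in KI, and ranged only from 806 to 915 CPM over all 20 libraries.

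**Figure D3:**
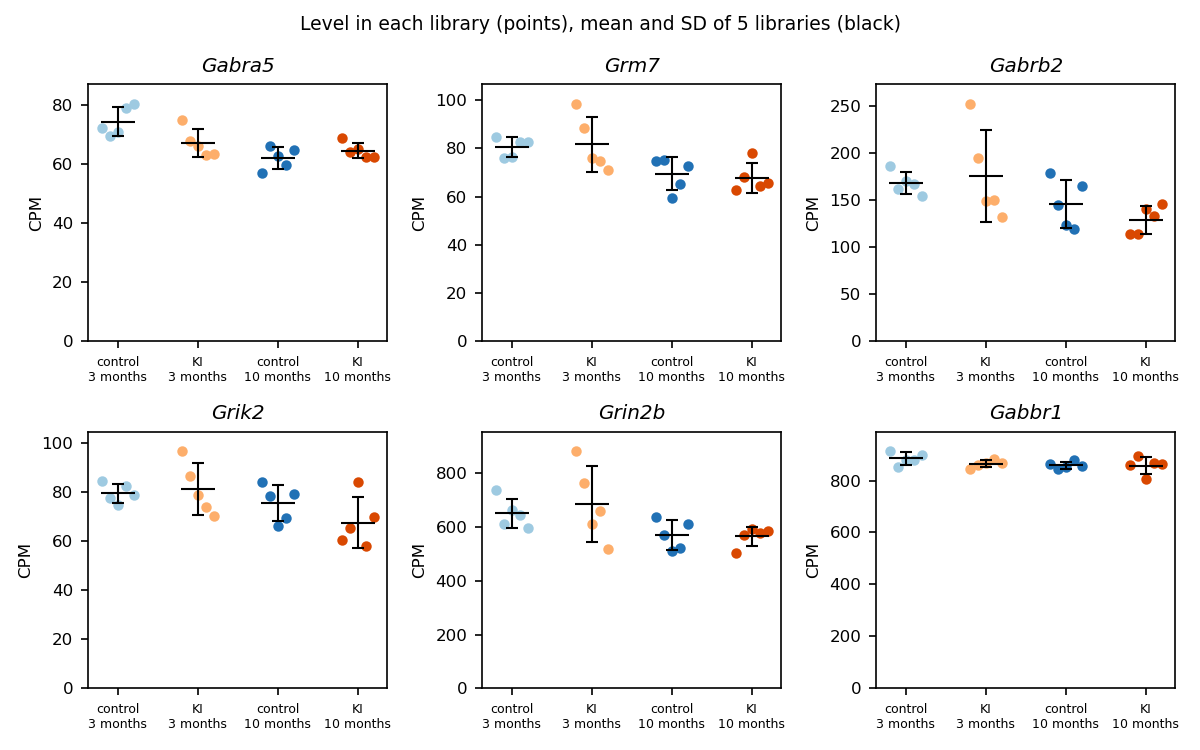
CPM of 6 subunit genes in each library (points), with the mean and SD of 5 libraries in black; each vertical axis starts at 0. Gabra5 libraries of control at 10 months lie below those at 3 months, the KI libraries at 3 months spread widely for Gabrb2, Grin2b, Grm7 and Grik2, and Gabbr1 is nearly level.

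No subunit gene passed the test of a difference between genotypes in the age effect. The interaction called 0 of 32, beside 0% of all genes; 1 of 32 had an unadjusted p under 0.05, beside 4.5% of all genes, and DESeq2 and limma-voom also called 0 of 32, beside 0.0215% and 0.0153%. After Gabra5 the smallest p belonged to Gabrg3 (0.30 ± 0.20), Grik2 (-0.19 ± 0.14) and Gabrg1 (-0.32 ± 0.24), each with an edgeR adjusted p of 0.999. For 24 of 32 genes the interval of the difference lay within 1.5-fold.

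Subunit balance was compared as log2 ratios of CPM within a library. The Grin2a to Grin2b ratio, which rises as synapses mature, was -4.93 ± 0.18 (SD, n = 5) in control and -5.12 ± 0.27 in KI at 3 months, and -5.09 ± 0.25 and -5.40 ± 0.47 at 10 months. Gria1 to Gria2, which bears on calcium permeability, was -0.72 ± 0.13 and -0.77 ± 0.23 at 3 months and -0.69 ± 0.25 and -0.68 ± 0.10 at 10 months. Gabbr1 to Gabbr2, the obligate partners of the GABA-B receptor, was 1.24 ± 0.07 and 1.21 ± 0.07 at 3 months and 1.26 ± 0.04 and 1.33 ± 0.16 at 10 months. In 12 two-sided exact permutation tests over all assignments of 5 against 5 libraries none passed: the smallest p was 0.127, for Gabbr1 to Gabbr2 with age in KI, and adjusted p ran from 0.709 to 0.921. That difference was 0.12 with all libraries and 0.056 without KI replicate 5 at 10 months. These ratios are of counts not scaled by length, so their level has no molar meaning.

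Some genes of proteins that work with the receptors passed with age. Of all genes tested, edgeR called 0.357% lower in control and 2.41% lower in KI, and 4.07% and 8.06% in either direction. An unadjusted p under 0.05 (edgeR) was reached by 13.6% and 21.2% of all genes. Of 20 postsynaptic scaffold genes 2 fell with age in control and the same 2 in KI: Homer1, which links metabotropic receptors to the postsynaptic density (-0.48 ± 0.12, edgeR adjusted p = 0.0211, and -0.78 ± 0.12, edgeR adjusted p = 0.000138), and Grip1, which binds AMPA subunits (-0.26 ± 0.07, edgeR adjusted p = 0.0275, and -0.31 ± 0.07, edgeR adjusted p = 0.0046). The scaffold medians were -0.13 and -0.18, with 19 of 20 below 0 in each genotype. None of 13 AMPA auxiliary genes and neither kainate auxiliary gene passed in either genotype (edgeR; at an unadjusted p under 0.05, 2 AMPA and 1 kainate auxiliary gene in control and 0 and 1 in KI). Of 10 GABA receptor partners 0 passed in control (1 at an unadjusted p under 0.05) and 1 rose in KI, Gabarap (0.34 ± 0.07, edgeR adjusted p = 0.00322), a ubiquitin-like protein of receptor transport and autophagy. Of 17 genes of transmitter synthesis and transport 0 passed in control (6 at an unadjusted p under 0.05) and 2 fell in KI: Gad1, which makes GABA (-0.23 ± 0.06, edgeR adjusted p = 0.0184), and Slc17a6, a vesicular glutamate transporter abundant in thalamus (-0.54 ± 0.15, edgeR adjusted p = 0.0282). In control Gad1 was at -0.21 ± 0.06 (edgeR adjusted p = 0.0553) and Slc17a6 at -0.44 ± 0.15 (edgeR adjusted p = 0.131). Slc17a6 is also counted among the thalamic markers below, and Gad1 among the inhibitory markers. Between genotypes 0 genes of these lists passed at either age with edgeR, beside 0.0255% of all genes at 3 months and 0.0612% at 10 months. An unadjusted p under 0.05 (edgeR) was reached by 1 at 3 months and 5 at 10 months, beside 3.8% and 7.86% of all genes.

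Markers of cells and of a neighbouring region also moved with age. Of 12 thalamic markers 1 was called lower with age in control (median log2 fold change -0.50), beside 0.357% of all genes. In KI 10 were called lower (median -0.92), beside 2.41% of all genes. The summed level of the thalamic markers ran from 201 to 356 CPM in control at 3 months, and had a median of 328 and a highest value of 454 in KI at 3 months. At 10 months it ran from 180 to 218 in control and from 188 to 209 in KI. With the thalamic marker score as a covariate, 31 of 32 subunit genes were below 0 in control and 30 in KI (medians -0.14 and -0.16), and 0 of 32 passed in control, beside 0.122% of all genes called lower. In KI this score ran from 0.409 to 1.41 at 3 months and from -0.553 to -0.367 at 10 months. The ages do not overlap in it, so in KI this fit cannot separate age from the thalamic score. At 3 months all 12 thalamic markers were above 0 in KI against control (median 0.46), while 47.6% of all genes were below 0. Of these markers 0 were called, beside 0.0255% of all genes, but 7 had an unadjusted p under 0.05 (edgeR), beside 3.8% of all genes. Of 10 microglial markers 8 rose with age in each genotype, beside 4.07% of all genes called in either direction in control and 8.06% in KI. Their summed level in control and KI went from 280 to 344 and 304 to 354 CPM at 3 months to 647 to 798 and 760 to 1030 at 10 months. Pan-neuronal markers had medians of -0.05 in control and 0.0075 in KI, excitatory markers -0.03 and -0.01 and inhibitory markers -0.08 and -0.15. No marker of these lists was at 0 in every library of a group. The part of neuronal and microglial markers in the receptor values was not tested.

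In most libraries the deviation of the subunit genes from their group mean varied with the GC content of their transcripts. The median coefficient of variation over the 32 genes was 7.73% in control at 3 months, 16.2% in KI at 3 months, 11.4% in control at 10 months and 12.9% in KI at 10 months, and it was widest for Grin2a, at 36.4% in KI at 3 months. In KI replicate 3 at 3 months all 21 genes with under 50% GC lay above their group mean (median deviation 0.33, log2 CPM) and all 11 with more lay below it (median -0.46). Grin2a (0.67), Gabrb2 (0.56) and Gabra2 (0.56) deviated most upward and Grm4 (-0.90), Grik5 (-0.79) and Grm2 (-0.76) most downward. KI replicate 5 at 10 months had 19 of 21 above and 11 of 11 below (medians 0.14 and -0.40). KI replicate 6 at 3 months and control replicate 8 at 10 months leaned the other way, with 18 and 19 of the 21 below and 11 and 10 of the 11 above. Across the 32 genes the correlation of deviation with GC content was -0.89 in KI replicate 3 at 3 months, and across 15325 genes of the same library -0.74. For the 32 genes it was at or over 0.5 in size in 16 of 20 libraries, 7 negative and 9 positive. It lay between -0.28 and 0.28 in the other 4 (control replicate 10 at 3 months, control replicate 7 and KI replicates 4 and 7 at 10 months). Across the 15325 genes it was smaller in size in every library, and ran from -0.74 to 0.59. In control replicate 9 at 3 months, for example, it was -0.15 across these genes and -0.52 across the 32. The points of each correlation share a library and the deviations in a group sum to about 0, so these values are a description. The boundaries of 50% GC and of 0.5 were chosen after the values were seen.

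**Figure D4:**
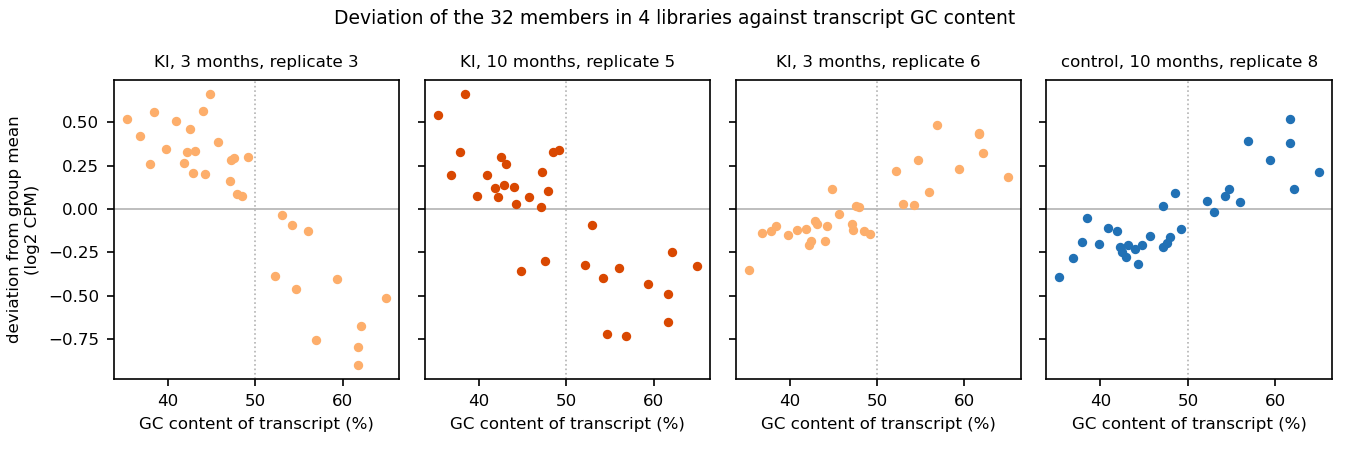
Deviation of each of the 32 subunit genes from its group mean (log2 CPM) against the GC content of its longest transcript in percent, in 4 libraries; the dotted line marks 50% and each point is 1 gene. Genes of low GC content lie above 0 and genes of high GC content below it in KI replicate 3 at 3 months, and mostly the reverse holds in KI replicate 6 at 3 months.

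With an offset for GC content fitted in each library, an alternative added after these values were seen, 0 of 32 genes passed in any genotype comparison. Of all 19623 genes this offset called 5 between genotypes at 3 months, 18 at 10 months and 32 with the ages averaged. With age 2 of the 32 passed in control, Gabra5 (-0.26, edgeR adjusted p = 0.00108) and Grm7 (edgeR adjusted p = 0.0387), beside 1.37% of all genes called lower. In KI 7 passed, all lower, beside 6.92% of all genes called lower: Gria2 (-0.14, edgeR adjusted p = 0.0338), Grik2 (-0.20, edgeR adjusted p = 0.00348), Grin1 (-0.18, edgeR adjusted p = 0.0181), Grin2b (-0.27, edgeR adjusted p = 0.02), Grm5 (-0.27, edgeR adjusted p = 0.00761), Grm7 (-0.28, edgeR adjusted p = 0.00356) and Gabrb2 (-0.41, edgeR adjusted p = 0.0102). Over all genes this setting called 1264 in control and 3051 in KI, against 799 and 1582 without it. Gria2, the AMPA subunit that makes the channel impermeable to calcium, and Grin1 thus joined the called genes only here, and the medians of the 32 stayed close, at -0.12 in control and -0.14 in KI.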

How the data were processed

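The authors deposited raw counts per gene for 20 libraries of mouse cortex, with gene lengths, symbols and coordinates. The submitters' processing notes name mm10; aligner, counter, strand setting and annotation release are not given in the sources used here. edgeR 4.0.16 (R 4.3.3) tested the counts (filterByExpr, TMM factors 0.972 to 1.03, robust quasi-likelihood fit to 4 group means, 16 residual degrees of freedom) with 6 contrasts, Benjamini-Hochberg adjustment over 19623 genes and a threshold of 0.05. The fit was tested on simulated data. Log2 CPM used a prior count of 2. GC content came from the longest GENCODE M21 transcript.

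All 32 genes are accounted for. Those named per comparison are every gene that passed, or otherwise the 4 of smallest unadjusted p; of the partner lists, up to 3 genes that passed. The members and lists were chosen with earlier results of these data known. Drd1 did not match a symbol of the table. Alternatives were RLE scaling, other low-count filters, DESeq2 1.42.0, limma-voom (limma 3.58.1), only the compared groups, a replicate block, a thalamic covariate, a threshold of 0.10, leaving out each library and, added later, a GC offset and another gene length.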

Additional observations from a re-analysis of the deposited data

Results flagged for a closer look

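Of 140 sets of 5 libraries examined, 8 had a library set apart from the other 4 by a gap that is large beside the range of the set, and chance gives about 1 in 20. The library labelled KI replicate 5 at 10 months accounted for 5 of the 8: it was highest in its group for Gria1 (553 CPM), Gabra2 (135 CPM), Grin3a (89.3 CPM) and Gabrg1 (33.2 CPM), and lowest for Gabrd (33.3 CPM). It is also the library with female-type Xist counts, in which the X-linked Gria3 stood at 399 CPM against 354 to 395 in the other KI libraries at 10 months and Gabra3 at 258 against 189 to 232. In this library 19 of the 21 genes with under 50% GC lay above their group mean, Gria3 and Gabra3 among them. A part of sex in these values was not tested. KI replicate 3 at 10 months was lowest for Grin2b (503 CPM). Control replicate 10 at 3 months was highest for Gria1 (575 CPM) and control replicate 8 at 3 months for Grm4 (20.6 CPM).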

How the results depend on the processing

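The number of subunit genes called in the genotype comparisons and in the interaction was 0 under every alternative run. With age in control it was 1 except with the thalamic covariate (0) and the GC offset (2), and between 1 and 1 when each control library was left out. With age in KI it was 0 except with DESeq2 (2), limma-voom (4), a threshold of 0.10 (2) and the GC offset (7). That threshold called 2289 of all 19623 genes tested with age in KI. The number of subunit genes called was between 0 and 4 when each KI library was left out. The replicate block changed none of these counts; shared replicate numbers did not mark pairs (4 of 18 same-numbered pairs correlated above 0.1, and 2 of 20 libraries matched their own number best). Under the block some genotype values turned direction: Grik3 at 3 months to 0.0032 and Gabra4 at 10 months to -0.0030. Averaged over ages, Gabra4 turned to -0.029, Grik1 to -0.093 and Gria4 to -0.092. Only replicate numbers 6 and 7 occur in both genotypes, so this fit compares genotypes largely within those libraries. It cannot show whether the direction holds over the other libraries. Differences of the Gria1 to Gria2 ratio crossed 0 when single libraries were left out, from -0.125 to 0.034 for KI at 3 months, from -0.059 to 0.108 for KI at 10 months and from -0.066 to 0.101 with age in control. Calls over all genes moved by over 1.5 times for genotype at 3 months with DESeq2 (12) and limma-voom (12) against 5, at 10 months with DESeq2 (59), limma-voom (75), the compared groups only (7) and the block (4) against 12, and averaged with DESeq2 (47), limma-voom (58), the block (4), the thalamic covariate (9), a threshold of 0.10 (31) and the GC offset (32) against 15. With age they moved so in control with limma-voom (1254), the thalamic covariate (509) and the GC offset (1264) against 799, and in KI with limma-voom (3027), the compared groups only (958), the thalamic covariate (266) and the GC offset (3051) against 1582. Only the compared groups could not be fitted separately for the averaged and interaction contrasts, which use all 4. Counting error is small at these depths, and the spread between libraries sets the limits.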
